A study of Mus musculus with 10 samples.

Results

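The Slc22 family of transporters moves organic anions, cations and zwitterions across the plasma membrane, and its 8 genes examined here were Slc22a26, Slc22a27, Slc22a28, Slc22a30, Slc22a5, Slc22a7, Slc22a18 and Slc22a23. They were taken by name from the deposited table: a row belonged to a gene when the platform annotation gave that gene as its only symbol. Each of the 8 genes had 1 such row (a probe set), out of 22184 genes represented in this way, and 24 genes in all carried an Slc22a symbol. The 8 genes were chosen with earlier results of this comparison in view, Slc22a26 for its difference between genotypes, so their differences are given below as a description and support nothing by themselves. The samples were 5 livers of macroH2A1 macroH2A2 double knockout mice and 5 livers of wild-type mice, each on 1 expression array. All 10 mice were males of strain 129/S6 (taconic), aged 2 months and fasted overnight for about 16 h, so both groups carried the fast and no fed liver was compared. MacroH2A proteins are variants of histone H2A with a large extra domain. The sources used here do not describe the alleles and do not say outright that no 2 samples share an animal, so p-values measure only the spread between these samples, which may be technical.

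Liver cells take up drugs, hormones, bile constituents and metabolites through Slc22 proteins before they are modified or excreted. Slc22a5 (Octn2) carries carnitine, which long-chain fatty acids need to enter mitochondria, and Slc22a7 (Oat2) is an organic anion transporter of the hepatocyte membrane. Slc22a26, Slc22a27, Slc22a28 and Slc22a30 belong to a cluster of related organic anion transporter genes on chromosome 19, several of which are known in mice to differ between the sexes. Slc22a18 lies in an imprinted domain and is expressed mainly from the maternal copy, and Slc22a23 is an orphan member.

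In the RefSeq annotation of GRCm38.p6, a run of 8 Slc22 genes lies on chromosome 19 in the order Slc22a19, Slc22a26, Slc22a27, Slc22a28, Slc22a29, Slc22a30, Slc22a8 and Slc22a6. Slc22a26 spans chr19:7780094-7802667, Slc22a27 chr19:7864388-7966517, Slc22a28 chr19:8061958-8131982 and Slc22a30 chr19:8335371-8405111. These 4 genes are all read from the minus strand, with a gap of 61.7 kb between Slc22a26 and Slc22a27 and of 95.4 kb between Slc22a27 and Slc22a28. The other members lie outside this cluster: Slc22a5 on chromosome 11, beside Slc22a4 and Slc22a21, Slc22a7 on chromosome 17, Slc22a18 on chromosome 7 and Slc22a23 on chromosome 13. The 300 bases around the annotated starts (250 before and 50 after) are printed for Slc22a26, whose level differed most, and for Slc22a28 and Slc22a30. Slc22a28 and Slc22a30 were picked for a correlation between arrays, given below, that did not pass adjustment. The capitals mark GTTAA on either strand, the half-site of the hepatocyte factor HNF1, and GTTAAC holds overlapping matches on both strands.

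Slc22a26 (chr19:7802618-7802917, minus strand): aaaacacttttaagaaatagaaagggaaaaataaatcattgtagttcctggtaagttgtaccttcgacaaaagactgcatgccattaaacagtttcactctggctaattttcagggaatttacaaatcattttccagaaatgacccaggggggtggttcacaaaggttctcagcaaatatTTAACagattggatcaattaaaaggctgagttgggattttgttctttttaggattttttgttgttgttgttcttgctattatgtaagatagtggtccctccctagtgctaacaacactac
Slc22a28 (chr19:8131933-8132232, minus strand): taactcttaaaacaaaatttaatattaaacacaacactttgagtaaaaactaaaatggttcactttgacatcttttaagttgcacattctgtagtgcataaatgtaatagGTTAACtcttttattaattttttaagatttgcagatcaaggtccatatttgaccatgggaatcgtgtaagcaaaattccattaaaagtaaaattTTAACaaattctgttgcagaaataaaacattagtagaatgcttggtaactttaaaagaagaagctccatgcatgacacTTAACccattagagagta
Slc22a30 (chr19:8405056-8405355, minus strand): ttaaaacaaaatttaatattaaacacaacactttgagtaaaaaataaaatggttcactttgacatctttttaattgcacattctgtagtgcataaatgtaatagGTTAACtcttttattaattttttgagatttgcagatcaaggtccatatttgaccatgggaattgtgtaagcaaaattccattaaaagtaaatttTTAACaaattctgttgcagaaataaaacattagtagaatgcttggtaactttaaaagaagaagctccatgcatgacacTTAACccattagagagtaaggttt

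The windows of Slc22a28 and Slc22a30 were near copies, with 288 of 294 aligned bases identical and no gap. The Slc22a26 window was much further from both, at 57.8% identity to Slc22a28 and 58% to Slc22a30. These alignments covered 240 and 246 bases, with 63 and 61 internal gap bases. The windows of Slc22a5 and Slc22a23, which lie on different chromosomes, had 55.1% identity over 239 bases, with 97 internal gap bases. Those of Slc22a26 and Slc22a23 had 54.5% over only 34 bases. With free end gaps the aligned length thus varied widely at similar percentages, and percent identity alone does not measure likeness. The Slc22a27 window aligned with that of Slc22a28 over only 31 bases, 24 of them identical. Whether likeness of these windows bears on the correlations between arrays was not tested. The GTTAA half-site occurred once in the Slc22a26 window, 4 times in each of the Slc22a28 and Slc22a30 windows and 0 times in that of Slc22a27, and 24.2% of all 32851 promoter windows of this length hold at least 1. TTCNNNGAA, the element bound by STAT5, the factor that carries the growth hormone signal in liver, was found once in the Slc22a26 window and not in those of Slc22a27, Slc22a28 and Slc22a30. It was also found 2 times in the window of Slc22a19, at the end of the same cluster, and once each in those of Slc22a15 and Slc22a16. It occurs in 8.3% of all windows, and its match in the Slc22a26 window starts 141 bases before the annotated start. Neither TATAAA (in 13.6% of all windows) nor CAAAGTCCA, a form of the HNF4 element (0.475%), was found in these 4 windows. A match of letters does not show binding.

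Slc22a26 was the member with the largest difference. Its log2 level was 7.77, 7.89, 7.48, 7.61 and 7.57 in double knockout livers and 6.95, 6.75, 7.03, 6.47 and 6.65 in wild-type livers, replicates 1 to 5 in each. Every double knockout array lay above every wild-type array. The means were 7.66 ± 0.17 in double knockout and 6.77 ± 0.23 in wild-type livers (SD, n = 5 each), a log2 difference of 0.89 (SE 0.11, 95% interval 0.66 to 1.13) or 1.86-fold. In whole liver RNA, more cells of a type and more RNA per cell cannot be told apart.

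The paralogues beside it had smaller differences. Slc22a27, the next gene in the cluster, stood at 4.37, 4.51, 4.29, 4.37 and 4.53 in double knockout livers and at 4.28, 4.18, 4.27, 4.22 and 4.29 in wild-type livers. Its groups did not overlap, but by a margin of only 4.289 against 4.285, and its log2 difference was 0.17 (SE 0.05, 95% interval 0.05 to 0.28). All its values were under 6.54, a level that 95% of the olfactory receptor probe sets did not exceed. Most olfactory receptors are genes of the nasal epithelium, and they serve here as a guide to background, so Slc22a27 was not measured above it.

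Slc22a28 (mean 9.62 over the 10 arrays) lay well above the background guide and Slc22a30 (mean 7.06) a little above it, and both varied more within the groups than between them. Slc22a28 had log2 levels of 9.61, 9.93, 9.40, 9.56 and 9.79 in double knockout livers and 9.78, 9.40, 9.59, 9.59 and 9.57 in wild-type livers. The ranges overlapped almost wholly, with a difference of 0.07 (SE 0.10, 95% interval -0.14 to 0.28). Slc22a30 had 7.11, 7.31, 6.80, 6.995 and 7.51 in double knockout livers and 7.33, 6.75, 6.77, 7.16 and 6.89 in wild-type livers, a difference of 0.17 (SE 0.14, 95% interval -0.14 to 0.48). Its ranges overlapped too, with 1 double knockout array above the highest wild-type array. How far these probe sets tell such similar genes apart was not tested.

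**Figure D1:**
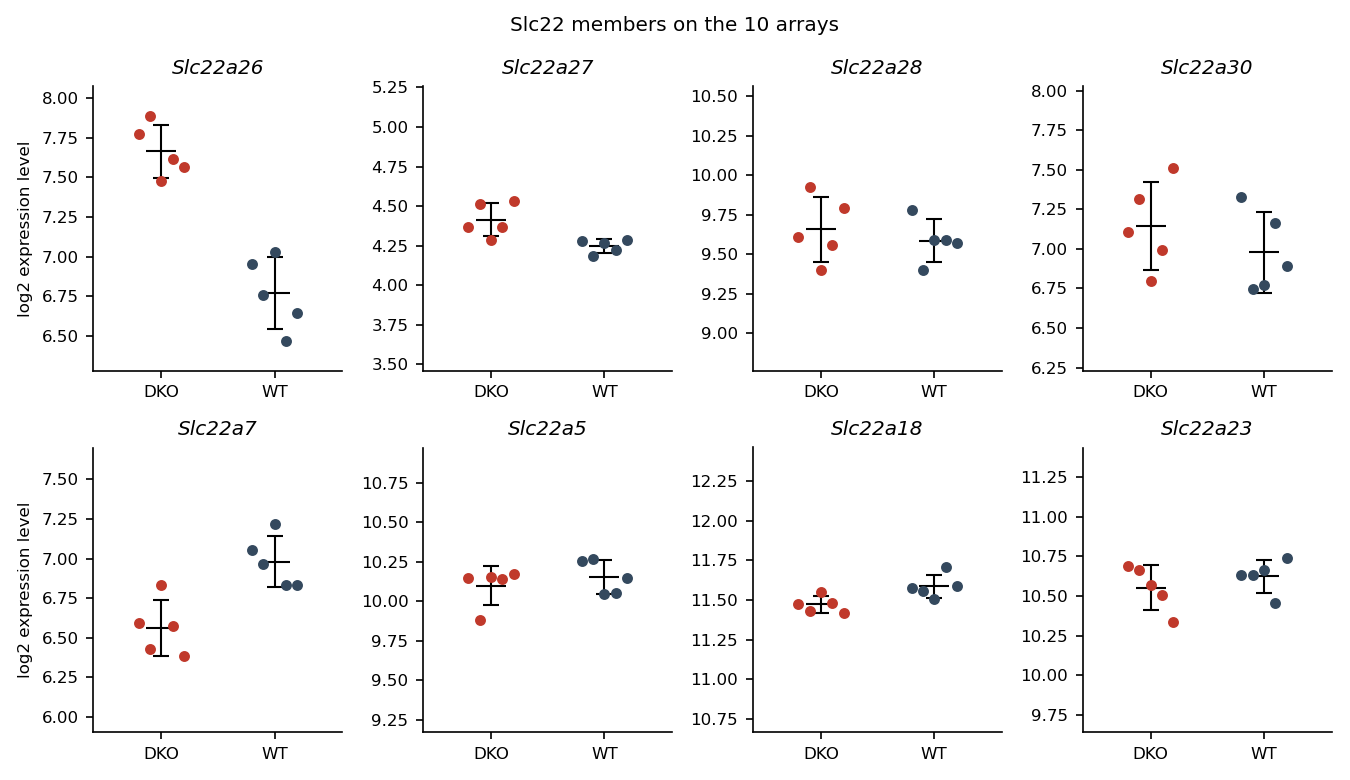
Log2 expression level of the 8 Slc22 genes on each of the 10 arrays, double knockout (DKO) left of wild type (WT); points are arrays, bars the mean and SD, and each panel spans the same log2 range. Slc22a26 is separated by genotype, Slc22a7 narrowly, and Slc22a28 and Slc22a30 overlap.

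Among the members at other loci, Slc22a7 had the largest difference, in the lower direction. It stood at 6.59, 6.43, 6.83, 6.57 and 6.39 in double knockout livers and at 7.06, 6.97, 7.22, 6.83 and 6.83 in wild-type livers. The groups did not overlap, although double knockout replicate 3, at 6.830, lay just below the lowest wild-type array, at 6.832. The means were 6.56 ± 0.17 in double knockout and 6.98 ± 0.16 in wild-type livers (SD, n = 5 each), a log2 difference of -0.42 (SE 0.09, 95% interval -0.62 to -0.22). Its mean over the 10 arrays, 6.77, was only a little above the background guide of 6.54.

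The carnitine carrier Slc22a5 had log2 levels of 10.15, 9.88, 10.15, 10.14 and 10.17 in double knockout livers and 10.26, 10.26, 10.04, 10.05 and 10.15 in wild-type livers. These ranges overlapped, with a difference of -0.05 (SE 0.07, 95% interval -0.20 to 0.10). The imprinted gene Slc22a18 ranged over 11.42 to 11.55 in double knockout and 11.50 to 11.71 in wild-type livers, and 4 of its 5 double knockout arrays lay below the lowest wild-type array (difference -0.11, SE 0.05). Slc22a23 ranged over 10.34 to 10.69 in double knockout and 10.46 to 10.74 in wild-type livers, with a difference of -0.07 (SE 0.07). All 4 members of the chromosome 19 cluster stood higher on average in double knockout livers, and all 4 at other loci had lower means. Nothing is read from this split, as members were chosen on this contrast. Slc22a27 was at background, and the 95% intervals of Slc22a28, Slc22a30, Slc22a5 and Slc22a23 included 0. Of the cluster's genes outside the members, Slc22a29 (0.11) and Slc22a19 (0.02) stood higher and Slc22a8 (-0.02) and Slc22a6 (-0.04) lower.

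In the fit over all 25335 probe sets with a gene symbol, 1 of the 8 members was called at a limma adjusted p under 0.05, Slc22a26, against 0.884% of all probe sets (0.332% higher and 0.553% lower). The groups did not overlap for 3 members, Slc22a26, Slc22a27 and Slc22a7, against 3.9% of all probe sets (1.75% higher and 2.15% lower). The members were chosen on this contrast, so nothing is read from either count. The median log2 difference was 0.01 over the 8 members and -0.003 over all probe sets tested. Slc22a7 was not called with all 10 arrays and no filter, but was called in 4 of 22 other fits, among them those without double knockout replicate 3 (-0.49), with the mean of the pancreatic markers as a covariate (-0.45) and after a filter on low levels (-0.42).

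The rest of the family was taken by name. It is what remained after the 8 members, chosen with this contrast in view, so its counts depend on that choice. Of the 16 other Slc22 genes, 8 stood higher and 8 lower in double knockout livers, their median log2 difference was -0.01, and 1 was called. The called gene was Slc22a15, a transporter of zwitterionic compounds as known from its human counterpart, which fell by 0.28 (SE 0.05, limma adjusted p = 0.0365). It stood at 8.23, 8.17, 8.20, 8.24 and 8.13 in double knockout livers and at 8.55, 8.54, 8.40, 8.58 and 8.33 in wild-type livers. Every double knockout array lay below every wild-type array, as for 2.15% of all probe sets. The size of the Slc22a15 difference kept between 0.26 and 0.32 in the lower direction when single arrays were left out, but its call was kept in only 2 of these 10 fits, those without replicate 3 or replicate 5 of the wild type. The limma adjusted p in the other 8 ran up to 0.105.

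Slc22a4 (Octn1), which carries ergothioneine and lies beside Slc22a5, came next with a difference of -0.28 (SE 0.11, limma adjusted p = 0.236). It stood at 7.22, 6.93, 7.46, 7.06 and 6.87 in double knockout livers and at 7.16, 7.47, 7.48, 7.42 and 7.39 in wild-type livers, and the groups overlapped. Slc22a21 (Octn3), the third gene of that locus, had -0.03 (SE 0.08). Of the cluster on chromosome 19, Slc22a29 had 0.11 (SE 0.08) and Slc22a19 (Oat5) 0.02 (SE 0.04), both at mean levels below the background guide. The kidney uptake carriers Slc22a6 (Oat1) and Slc22a8 (Oat3), at the far end of the cluster, had -0.04 (SE 0.05) and -0.02 (SE 0.05). The mean of Slc22a6 was also below the background guide.

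The remaining 9 genes had log2 differences between -0.12 for Slc22a13b, a transcribed pseudogene, and 0.10 for the organic cation transporter Slc22a2, and 0 of them were called. Between these lay Slc22a20 (-0.04), Slc22a14 (-0.02), Slc22a13 (0.01), Slc22a16 (0.01), Slc22a17 (0.01), Slc22a22 (0.06) and the urate transporter Slc22a12 (0.07). Their limma adjusted p ran from 0.583 to 0.974. Over all 16 genes outside the members, 2 had an unadjusted p under 0.05, where 15.1% of all probe sets did, and 7 had a mean above the background guide.

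**Figure D2:**
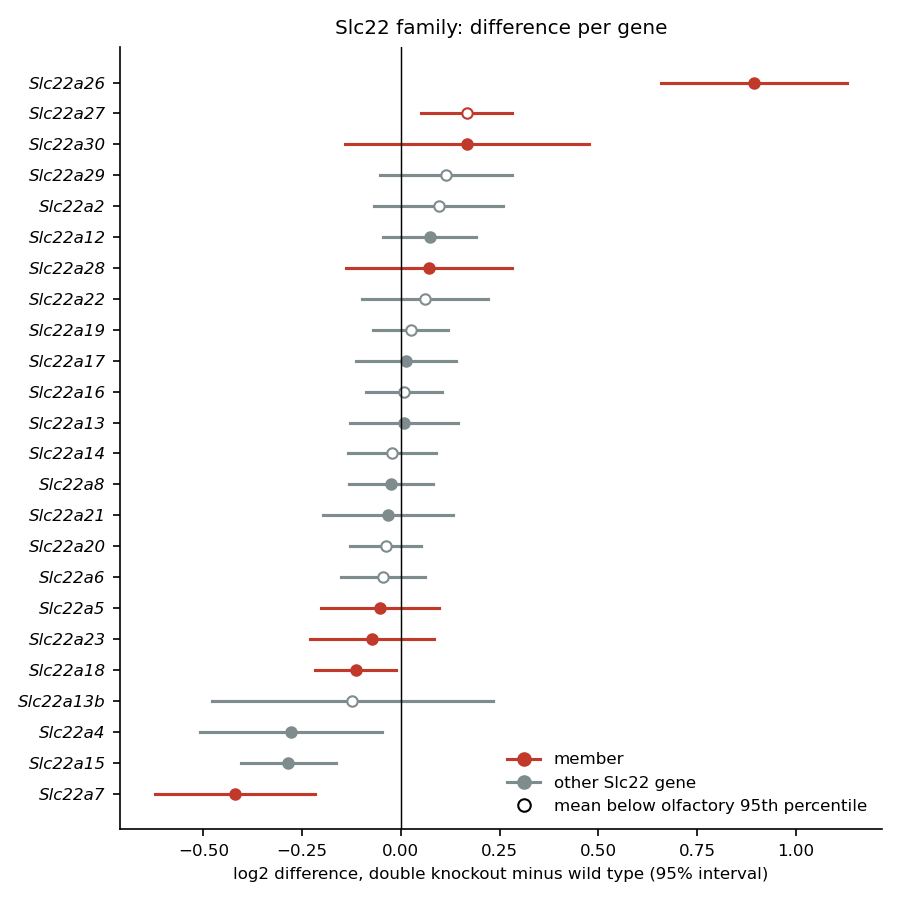
Log2 difference, double knockout minus wild type, of the 24 Slc22 genes that had a probe set, ordered by size; lines are 95% intervals of the limma fit, and open circles have a mean below the background guide of 6.54. Slc22a26 lies at 0.89, apart from the next gene at 0.17, and Slc22a7 lies lowest at -0.42.

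The genes around the cluster were examined for a difference shared along the chromosome. Of 84 non-Slc22 genes annotated within 500 kb of the run from Slc22a19 to Slc22a6, 48 had a 1-symbol probe set, 39 of them above the background guide. Of the 48, 24 stood higher in double knockout livers and 24 stood lower, and their log2 differences had a median of 0.0004 and a range of -0.23 to 0.19. In limma 0 were called, and 7 had an unadjusted p under 0.05, a share close to the 15.1% of all probe sets tested. The lowest p were those of Macrod1, a macrodomain hydrolase (-0.18, SE 0.04, limma adjusted p = 0.076), and Lrrn4cl (-0.23, SE 0.07, limma adjusted p = 0.159). Macrod1 was called after the filter on low levels (-0.18, SE 0.04, limma adjusted p = 0.0462). The plot of differences along the cluster shows Slc22a26 as the 1 gene of the region above 0.2.

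**Figure D3:**
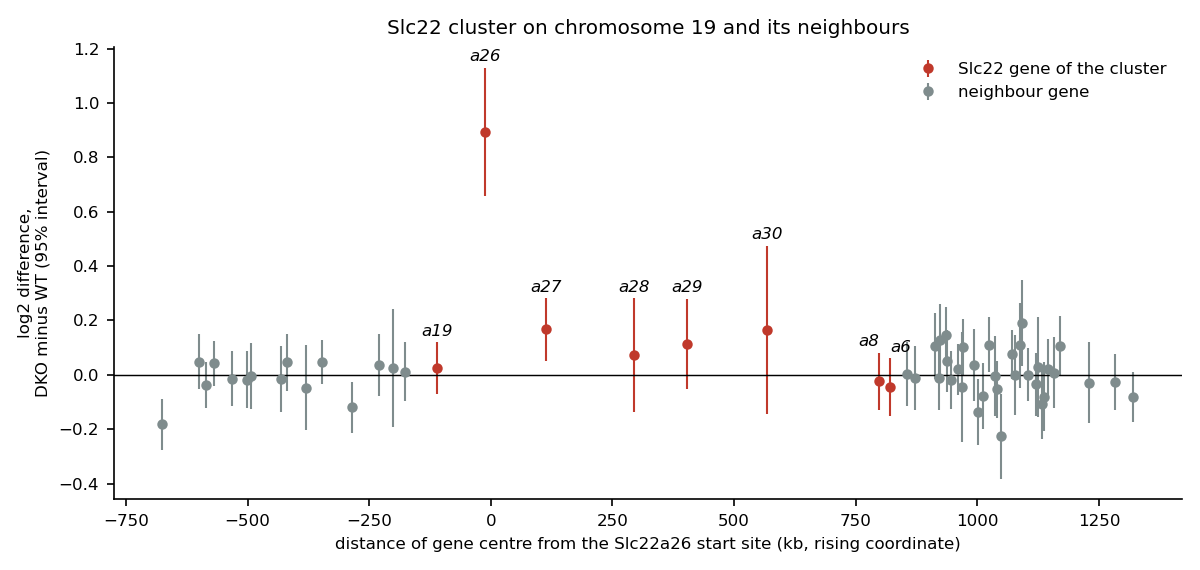
Log2 difference, double knockout minus wild type, with 95% interval, against distance in kb of each gene's centre from the Slc22a26 start site; red points are the 8 Slc22 genes of the cluster, labelled without the prefix Slc22, and grey points are the 48 neighbours. The neighbours lie between -0.23 and 0.19, and Slc22a26 at 0.89.

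Variation between arrays of the same genotype was compared next, after the group means were subtracted, a measure that the genotype difference does not enter. The probe set of Slc22a28 correlated with that of Slc22a27 (Pearson r = 0.89, exact permutation p = 0.00403; Spearman rho = 0.87, exact permutation p = 0.00875) and with that of Slc22a30 (r = 0.84, exact permutation p = 0.0041; rho = 0.78, exact permutation p = 0.016). These were the lowest p of the 28 pairs of members. After Benjamini-Hochberg adjustment over the 28 pairs they were 0.0574 for r and 0.224 for rho in both pairs (two-sided exact permutation within groups, 10 arrays), so neither passed. Slc22a27 lay below the background guide, and how far its probe set picks up RNA of Slc22a28 was not tested. Without the 2 arrays farthest from the median, r was 0.87 for Slc22a27 and Slc22a28 and 0.86 for Slc22a28 and Slc22a30. In comparison, 0.0637% of 12560 other genes above the background guide had an r with Slc22a28 at least as high as that of Slc22a27, and 0.135% of 12559 had one at least as high as that of Slc22a30. The pairs were picked for their low p, so low shares follow from the choice and support nothing. Slc22a27 itself lies below the guide that these other genes exceed.

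The correlations of Slc22a26 with its paralogues were r = 0.36 to Slc22a27 (rho = 0.22), 0.49 to Slc22a28 (rho = 0.48) and 0.09 to Slc22a30 (rho = 0.02; exact permutation p of r from 0.153 to 0.803, adjusted p from 0.475 to 0.9). Without the 2 farthest arrays these r were 0.37, 0.69 and 0.53, so the last rested on 2 arrays, and no test compared these correlations with those of the other pairs. Its lowest p was with Slc22a18, in the opposite direction (r = -0.76, exact permutation p = 0.0188, adjusted p = 0.173; rho = -0.71, exact permutation p = 0.0357, adjusted p = 0.25). Without the 2 farthest arrays that r was -0.47. All probe sets of 1 array share its RNA and its normalization.

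The genes whose pattern over the 10 arrays was most like that of Slc22a26, among 12560 others above the background guide, were Adh1, an alcohol dehydrogenase (r = 0.99), Stx7, a syntaxin of endosomes (0.96), Taf1a (0.96) and Nup210, a nuclear pore protein (0.95), followed by Acin1 (0.94). This r includes the genotype difference. After the group means were removed the order was Flrt1 (0.96), Taf1a (0.92), Adh1 (0.91), Dab2 (0.91) and Fads3 (0.91). Adh1 and Taf1a were thus in both lists, while their own log2 differences were 0.11 and 0.13 and were not called (limma adjusted p = 0.17 and 0.164). These are descriptions over 10 arrays, given without a test.

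Markers of other cell types differed between the arrays. The mean of 12 measured pancreatic acinar markers was 8.60, 8.81, 6.06, 6.72 and 6.15 in double knockout replicates 1 to 5 and 6.09, 6.17, 6.004, 9.81 and 10.97 in wild-type replicates 1 to 5. The 4 arrays of highest mean were thus double knockout 1 and 2, which had the highest Slc22a26 levels of their group, and wild type 4 and 5, which had the lowest of theirs. Without these 4 arrays the Slc22a26 difference was 0.64 (SE 0.08, limma adjusted p = 0.0431), and with the marker mean as a covariate 0.88 (SE 0.11). The r of Slc22a26 with the pancreatic marker mean was 0.96 among double knockout and -0.80 among wild-type arrays. The covariate fit has 1 slope for both groups, so its 0.88 does not account for slopes in opposite directions. The 15 macrophage markers were all higher on average in double knockout livers, and their mean per array was 8.90 to 9.20 in double knockout and 8.65 to 8.94 in wild-type livers. With this mean as a covariate the Slc22a26 difference was 0.93 with a larger SE of 0.17 and was not called (limma adjusted p = 0.107). Hepatocyte markers, as the check of the labelled tissue, had list means of 13.44 to 13.47 in double knockout and 13.43 to 13.52 in wild-type livers, with 0 of 10 called in limma and 0 at an unadjusted p under 0.05.

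Slc22a5 was the member that moved with the macrophage markers. After the group means were removed, its level was lower in arrays with a higher macrophage marker mean (Pearson r = -0.90, exact permutation p = 0.0016, adjusted over 16 relations p = 0.0256; Spearman rho = -0.95, exact permutation p = 0.000556, adjusted p = 0.00889). The r was -0.91 among the 5 double knockout arrays, -0.90 among the 5 wild-type arrays and -0.77 without the 2 arrays farthest from the median marker mean. Of 12560 other genes above the background guide, 0.0876% had an r as low. Slc22a5 was picked for its low p, so a low share follows from that choice. With the marker mean as a covariate the Slc22a5 difference was 0.16 (SE 0.07, limma adjusted p = 0.419), against -0.05 without it. The other 15 relations of members with the 2 marker means had adjusted p from 0.419 to 0.987 over r and rho (exact permutation), and the part of macrophage content in the level of Slc22a5 was not tested further.

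**Figure D4:**
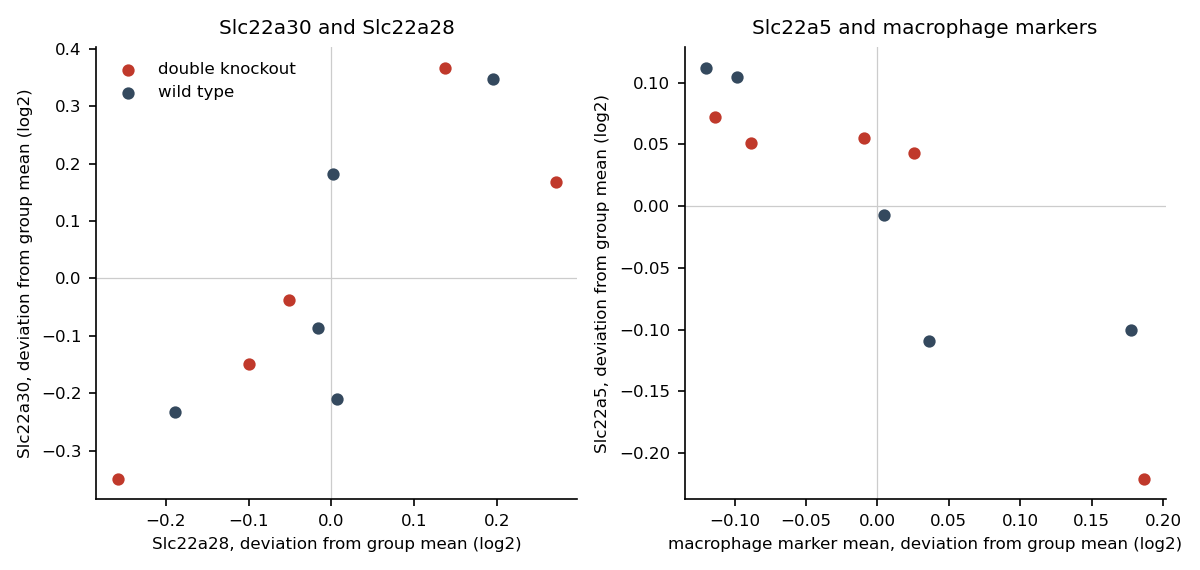
Deviation from the group mean on the log2 scale for each array: left, Slc22a30 against Slc22a28 (r = 0.84), and right, Slc22a5 against the mean of 15 macrophage markers (r = -0.90). Red points are double knockout and dark points wild-type arrays, and in each plot both groups slope the same way.

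Other transporters of the liver cell were taken from a list of 23 genes, all measured. Of these, 8 stood higher and 15 lower in double knockout livers (median -0.04), and 3 were called, all lower, where 0.553% of all probe sets were called lower. In limma 7 of the 23 had an unadjusted p under 0.05, against 15.1% of all probe sets. The list was drawn up with earlier results known, so nothing is read from these counts. Slco2a1, the prostaglandin transporter, fell by 0.54 (SE 0.07, limma adjusted p = 0.00686), with means of 9.89 ± 0.17 in double knockout and 10.44 ± 0.06 in wild-type livers (SD, n = 5 each). Slc47a1, which extrudes organic cations, fell by 0.39 (SE 0.06, limma adjusted p = 0.0212), and the efflux pump Abcg2 by 0.25 (SE 0.04, limma adjusted p = 0.0177). When single arrays were left out, the call was kept in 10 of 10 fits for Slco2a1, 8 for Abcg2 and 7 for Slc47a1. With the macrophage markers as a covariate 0 of the 3 were called (limma adjusted p = 0.0991 for Slco2a1, 0.213 for Abcg2 and 0.114 for Slc47a1), Slc47a1 was not called with every row tested (0.0573), and Abcg2 was not called without the 4 arrays highest in pancreatic markers (0.11). With the macrophage covariate the differences did not shrink but had larger SE: -0.64 (SE 0.11) for Slco2a1, -0.26 (SE 0.06) for Abcg2 and -0.49 (SE 0.09) for Slc47a1.

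Carnitine genes bear on the substrate of Slc22a5. Of 11 measured genes of carnitine supply and shuttle, 2 had higher and 9 lower means, with a median of -0.05. In limma 4 had an unadjusted p under 0.05, against 15.1% of all probe sets, and 1 was called, against 0.884% of all probe sets. Bbox1, the enzyme of the last step of carnitine synthesis, fell by 0.28 (SE 0.05, limma adjusted p = 0.0212), with means of 11.14 ± 0.03 in double knockout and 11.42 ± 0.08 in wild-type livers (SD, n = 5 each). The call was kept in 7 of the 10 fits without 1 array, and was lost with every row tested (limma adjusted p = 0.0529), with the macrophage covariate (0.225) and without the 4 arrays highest in pancreatic markers (0.0713). With the macrophage covariate the Bbox1 difference was -0.29, with a larger SE of 0.07.

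In the imprinted domain of Slc22a18, 5 of 14 measured genes had higher and 9 lower means, with a median of -0.06, and in limma 0 were called, with 5 of the 14 at an unadjusted p under 0.05, against 15.1% of all probe sets. The antisense transcript Kcnq1ot1 had 0.24 (SE 0.06, limma adjusted p = 0.103) and Cd81, a tetraspanin, -0.12 (SE 0.04, limma adjusted p = 0.214). Kcnq1ot1 overlaps Kcnq1 on the other strand, and how far its probe set tells them apart was not tested.

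Sex-biased genes were listed because several genes of the chromosome 19 cluster differ between the sexes in mice. Of 28 measured female-biased liver genes, 19 had higher means, with a median of 0.06, and 1 was called, the oxysterol hydroxylase Cyp39a1, which rose by 0.93 (SE 0.13, limma adjusted p = 0.00915). The member farthest from 0 went the other way and was not called: Hamp2, a hepcidin gene, named after its value was seen (-1.71, SE 0.37, limma adjusted p = 0.0557). Of 27 male-biased genes, 18 had lower means, with a median of -0.03, and 3 were called, all lower. They were the complement component C6 (-0.71, SE 0.10, limma adjusted p = 0.00685), the odorant-binding protein Obp2a (-2.68, SE 0.37, limma adjusted p = 0.00733) and the major urinary protein Mup21 (-1.59, SE 0.23, limma adjusted p = 0.00915). The highest difference of this list was that of Selenbp2, a selenium-binding protein, also named after its value was seen (1.04, SE 0.34, limma adjusted p = 0.177). With the macrophage covariate 0 genes of either list were called, and without the 4 arrays highest in pancreatic markers Mup21 was the 1 male-biased gene called. Over all 22 other fits the difference lay between 0.77 and 1.10 for Cyp39a1 and between -0.83 and -0.64 for C6. Among 21 measured regulators of liver transporter genes, 17 had lower means, with a median of -0.07, and 1 was called, the growth hormone receptor Ghr, which fell by 0.30 (SE 0.05, limma adjusted p = 0.0212) and kept its call in 7 of the 10 fits without 1 array, but not with every row tested, with the macrophage covariate or without the 4 arrays highest in pancreatic markers (limma adjusted p up to 0.162). Over all 22 other fits the Ghr difference lay between -0.36 and -0.28. These lists were drawn up with earlier results known and are given as counts. Over all probe sets 0.884% were called (0.332% higher and 0.553% lower) and 15.1% had an unadjusted p under 0.05 in limma. That p was met in either direction by 9 of the 28 female-biased genes, 14 of the 27 male-biased genes and 4 of the 21 regulators.

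**Figure D5:**
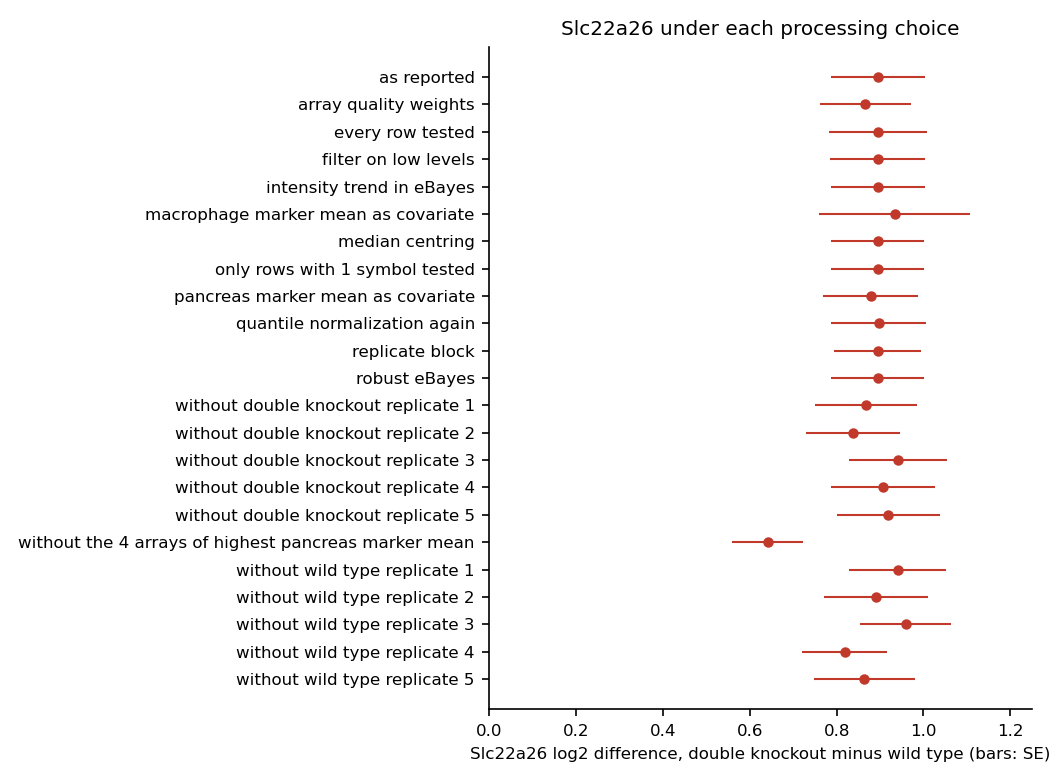
Slc22a26 log2 difference, double knockout minus wild type, with its SE, as reported and under each of 22 other fits. The values lie between 0.64, when the 4 arrays highest in pancreatic markers were left out, and 0.96, without wild-type replicate 3.

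As a check of the labels, the Macroh2a1 probe set was lower in double knockout livers by a log2 difference of -0.49 (SE 0.05, limma adjusted p = 0.00128). Its mean was 9.11 in double knockout and 9.60 in wild-type livers, so it stayed well above the background guide in both. Why signal remained was not tested. Macroh2a2, below the background guide on average, had -0.20 (SE 0.13, limma adjusted p = 0.514), and its groups overlapped. Marker counts of the remaining cell types stand beside 0.884% of all probe sets called and 15.1% at an unadjusted p under 0.05 in limma. Of the endothelial markers, 8 of 10 had higher means and 0 were called (1 at an unadjusted p under 0.05). For stellate cells and fibroblasts it was 5 of 10 and 0 called (2), and for kidney 4 of 10 and 0 called (1). For cholangiocytes it was 5 of 6 and 1 called (1), Krt23 (0.84, SE 0.13, limma adjusted p = 0.0161). Krt23 was not called without the 4 arrays highest in pancreatic markers, with the macrophage covariate, or without double knockout replicate 4 or 5. Only 3 of the 10 kidney markers lay above the background guide: Slc22a12, Umod and Nphs1. The kidney list shares Slc22a6 and Slc22a12 with the Slc22 family counted above. Of the 15 macrophage markers, 10 had an unadjusted p under 0.05 in limma. The scavenger receptors Cd163 (log2 difference 0.44, limma adjusted p = 0.0284) and Marco (log2 difference 0.61, limma adjusted p = 0.0475) were called, where 0.332% of all probe sets were called higher. The Marco groups overlapped. With every row tested or with the replicate number as a block, 0 of the 15 were called. The same held without double knockout replicate 2, 3 or 4 or wild-type replicate 2. Of the 12 pancreatic markers 0 were called, and 0 had an unadjusted p under 0.05.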

How the data were processed

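All values came from a deposited table on the log2 scale, 1 row per probe set and 1 column per array. The submitters' processing notes name Affymetrix Expression Console, and its version, summarisation and normalization were not given in the sources used here. Array medians lay between 6.43 and 6.46. Precision is limited by the number of arrays. Scanner files were not used here.

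Gene names came from the platform annotation: of 41345 rows, 23525 had 1 gene symbol, 1810 several and 16010 none. Gene identifiers updated old symbols. The genotypes were compared with limma 3.58.1 (R 4.3.3; two-sided lmFit and eBayes, group as the only term) over the 25335 rows with a symbol, with Benjamini-Hochberg adjustment. The fit was tested on simulated data. A gene was represented by its row of highest mean.

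Members, lists and tests were chosen with earlier results of these data known. Named were all Slc22 genes, called genes, up to 4 per list (otherwise the 2 of lowest p) and the 5 genes most like Slc22a26. Predicted genes were not named. Hamp2 and Selenbp2 were named outside this rule. Correlations used exact permutation of arrays within groups, and rho was taken on ranks of the deviations from the group means. Promoter windows are RefSeq sequences of GRCm38.p6, found for 7 of 8 members and aligned globally with free end gaps. Alternatives are given in the closing section.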

Additional observations from a re-analysis of the deposited data

Results flagged for a closer look

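Among 62 groups of 5 arrays examined (the 24 Slc22 genes and 7 marker means, each in double knockout and wild-type livers), 3 held an array far from the other 4 by Dixon's criterion, which chance meets in about 1 of 20 groups. Slc22a5 stood at 9.88 in double knockout replicate 2, where the remaining 4 arrays of that genotype lay between 10.14 and 10.17, and this array also had the highest macrophage marker mean of all 10, 9.20. Slc22a4 stood at 7.16 in wild-type replicate 1, against 7.39 to 7.48 in the other 4 wild-type arrays. Slc22a6, below the background guide, stood at 5.90 in wild-type replicate 3, against 6.03 to 6.08 in the others.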

How the results depend on the processing

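The Slc22a26 difference kept its direction in all 22 other fits and its call in 21, the exception being the macrophage marker mean as a covariate (0.93, adjusted p = 0.107). It lay between 0.82 and 0.96 without single arrays. No other fit called Slc22a27, Slc22a28 or Slc22a30. Counts of called probe sets, 224 as reported, were less stable: 75 with every row tested, 377 after the filter on low levels, 12 with the macrophage covariate, 68 without the 4 arrays highest in pancreatic markers, 585 at an adjusted p under 0.10, and 64 (without wild-type replicate 2) to 253 (without double knockout replicate 1) without single arrays. Members called numbered 2 after the filter, with the pancreas covariate and at 0.10, 0 with the macrophage covariate, and 1 to 2 without single arrays. Other Slc22 genes called numbered 0 with every row tested, with the macrophage covariate and without the 4 arrays, and 0 to 1 without single arrays. Neighbours called numbered 1 after the filter and at 0.10. The causes were not tested. With the replicate number as a block, 76 probe sets, 2 members (Slc22a26, at 0.89, and Slc22a7, at -0.42) and 0 other Slc22 genes were called. Under the block Slco2a1, Cyp39a1, C6 and Mup21 kept their calls, and Abcg2 (adjusted p = 0.0813), Slc47a1 and Bbox1 (both 0.068), Ghr (0.0736) and Obp2a (0.068) lost theirs. The numbers do not pair the arrays: same-numbered arrays deviated with correlations of -0.48 to 0.13. Each member had 1 row, so no other row of a member could be tried. Slc22a27 lies below the filter and has no value there. Signal over background limits Slc22a27, Slc22a29, Slc22a19 and Slc22a6 of the cluster. It also limits Slc22a2, Slc22a13b, Slc22a14, Slc22a16, Slc22a20 and Slc22a22.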
